A study of Mus musculus with 15 samples.

Results

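PreSertoli-specific open regions without H3K27ac are stretches of mouse chromatin that were open to nuclease cutting in fetal preSertoli cells alone and that lay outside every H3K27ac domain of those cells. To find them, the DNase-seq peaks of all 8 deposited lists were merged, with touching or overlapping peaks joined. A merged region was kept when it held a peak in the E15.5 and in the E13.5 preSertoli list, held none in the 6 other lists, and overlapped no H3K27ac domain of E13.5 preSertoli cells. This left 6439 of 237612 merged regions, or 2.71% of them. They are 63.3% of the 10165 preSertoli-specific regions (95% Wilson interval 62.4 to 64.3, which covers counting error only), and the other 3726 preSertoli-specific regions overlapped a domain. The members were thus chosen by measured values, the DNase peak calls and the H3K27ac domain calls, so their strength, stage balance and distance to a domain are given as descriptions without a test.

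The preSertoli DNase-seq libraries came from FACS-sorted cells of E15.5 and of E13.5 testes, 1 library each. The embryos were C57BL/6J x CD-1 (F1) males carrying a Sox9-ECFP reporter from their sire, which marks the sorted cells by fluorescence, and the labels call them Sox9 heterozygous. The 6 other libraries, also 1 each, came from the strain C57BL/6J: feeder-free ES cells, a primary culture of adult skin fibroblasts, and 4 frozen adult organs (liver, kidney, heart and brain). A single H3K27ac list was made for 2 ChIP-seq libraries from E13.5 preSertoli cells, each of pooled sorts, which had 2 input controls. Endogenous nucleases cut the chromatin of the frozen preSertoli cells, whereas added DNase I cut that of the other samples. Cell type, developmental age, sorting, culture, cross of mice and way of cutting thus differ between the preSertoli lists and some or all of the others. They cannot be told apart in what sets the members apart from the other 6 lists.

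PreSertoli cells are the supporting cells of the fetal testis: they enclose the germ cells, secrete anti-Müllerian hormone and direct the male pathway under the transcription factor Sox9. Chromatin that is open to nucleases is usually bound by sequence-specific proteins at promoters, enhancers, insulators or silencers. H3K27ac, the acetylation of lysine 27 on histone H3, is a mark of active promoters and enhancers. Open sites without it are known to include poised or primed enhancers, insulators and silencers, and the lists here do not tell these apart.

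The E15.5 list held 81467 peaks and the E13.5 list 88107, against 62218 to 96536 in the 6 other lists, and the number of reads behind each list is unknown. There were 28586 H3K27ac domains, with 2200 bp as the median width. The labelled cell type was checked in the RNA-seq table of E15.5 preSertoli cells (3 pools of sorted cells of the same cross), where 24 of 30 Sertoli markers stood above 1 on the authors' square-root scale in all 3 libraries, against 18.0% of all symbols. Sox9 stood at 2.36 ± 0.171 and Amh, which encodes anti-Müllerian hormone, at 6.57 ± 1.14 (SD, n = 3). None of 10 granulosa, 10 germ cell and 8 endothelial markers stood above 1 in all 3 libraries. Nor did any of the 6 peritubular myoid and interstitial or the 4 macrophage and blood markers that had values. Median levels of these lists, in that order, were 0.146, 0.361, 0.186, 0.550 and 0.172, against 0.123 over all symbols. Absence of these cells from the sort was therefore not shown. Of 10 genes listed for fetal Leydig cells, 7 stood above 1 in all 3 libraries: Cyp11a1, Cyp17a1, Star, Hsd3b1, Hsd17b3, Fads1 and Ptch1. Whether each is confined to Leydig cells was not tested. Cyp17a1, an enzyme of androgen synthesis, stood at 3.79 ± 0.410 (SD, n = 3), and the part of Leydig cells in the open regions was not tested. All positions are in mm9, and genes at these positions are not named because the annotation used here has another build.

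The members were weaker than the middle peak of both preSertoli lists, mostly through a lack of strong peaks. Their signal height, the authors' value for each peak, had a median of 0.0945 at E15.5 (quartiles 0.0748 and 0.129) and of 0.0928 at E13.5 (quartiles 0.0747 and 0.126). Over the whole lists the median was 0.107 at E15.5 (quartiles 0.0756 and 0.189) and 0.108 at E13.5 (quartiles 0.0772 and 0.199). Members thus differed from the whole lists more at the upper than at the lower quartile. The preSertoli-specific regions with H3K27ac had medians of 0.119 at E15.5 and 0.112 at E13.5. Members reached the upper 50% of the E15.5 list in 38.5% of cases (Wilson interval 37.3 to 39.7), against 59.0% of the regions with H3K27ac (57.5 to 60.6). In the E13.5 list the shares were 35.3% of the members (34.2 to 36.5) and 52.4% of the regions with H3K27ac (50.8 to 54.0). Only 46 members at E15.5 and 21 at E13.5 were among the top 10% of peaks, against 129 and 47 of the smaller set with H3K27ac. Regions open in all 8 lists were stronger than either set, with median signal heights of 0.254 at E15.5 and 0.315 at E13.5.

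**Figure D1:**
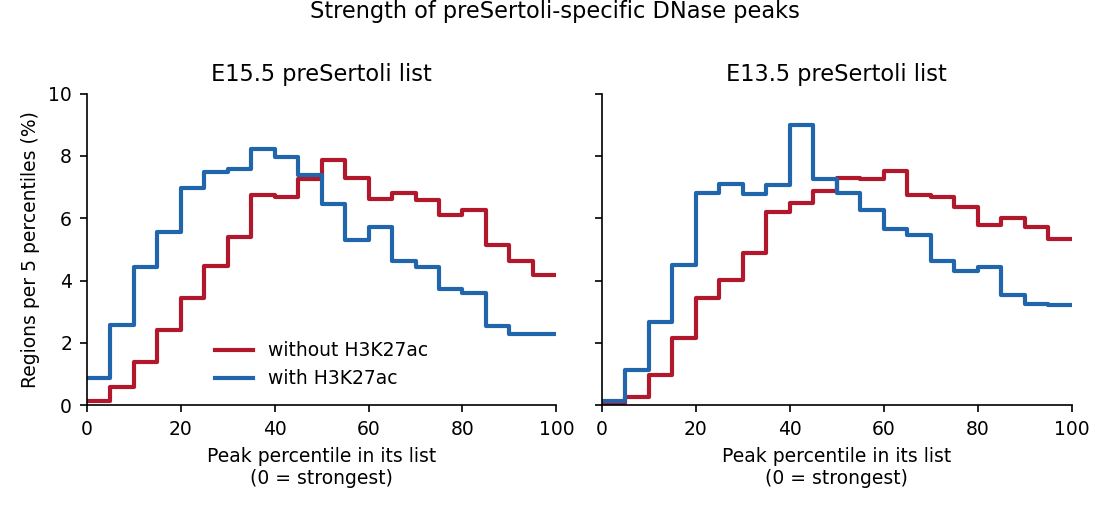
Share of preSertoli-specific regions (vertical axis, % per 5 percentiles) by the percentile of their strongest peak in the E15.5 list (left) and the E13.5 list (right), where 0 is the strongest peak. The regions without H3K27ac (red) lie further to the weak end than those with it (blue), with medians at percentiles 57.6 and 44.2 at E15.5 and 60.1 and 48.3 at E13.5.

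The share of preSertoli-specific regions that lacked H3K27ac was higher the weaker the peak. By place in the E15.5 list it was 26.3% among the 175 regions in the strongest 10% of that list (Wilson interval 20.3 to 33.3) and 77.0% among the 738 in the weakest 10% (73.8 to 79.9). By place in the E13.5 list it was 30.9% of 68 regions (21.2 to 42.6) in the strongest 10% and 74.7% of 953 regions (71.9 to 77.4) in the weakest 10%. In the upper 50% of both lists stood 1272 members (19.8%), against 1442 of the regions with H3K27ac (38.7%).

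Many members lay close to the lowest −log10 p in the lists, which is 1.3 in each of the 8. At the weaker of their stages, 2528 members (39.3%) had a −log10 p below 1.5, against 23.6% of the regions with H3K27ac. Taking the weaker stage raises such shares. Stage by stage, the lower quartile of −log10 p in members was 1.52 at E15.5 and 1.5 at E13.5, against 1.54 in each whole list. A −log10 p of 2 or more at both stages was found in 1408 members (21.9%), against 41.5% of those with H3K27ac.

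Members were narrower than the preSertoli-specific regions with H3K27ac, but their median width was above that of all merged regions without H3K27ac. The median width of members was 359 bp (quartiles 268 and 475, range 44 to 1975), against 455 bp for the regions with H3K27ac. Over all merged regions without H3K27ac the median was 295 bp. Among these it was 157 bp in regions of the E13.5 list alone, 172 bp in those of the E15.5 list alone and 613 bp in those open in all 8 lists. A wider region has more bases that can meet a domain, so the rule itself can link width to H3K27ac. Of the regions with H3K27ac, 91.0% lay wholly inside a domain, and the part of the rule in the width difference was not tested. In 98.4% of members the region consisted of 1 peak per stage, and so it did in 96.6% of the regions with H3K27ac. In these members the E15.5 peak and the E13.5 peak had median widths of 286 and 267 bp. Their centres lay a median of 34 bp apart, against 39 bp in the regions with H3K27ac. The shorter peak lay wholly inside the longer in 62.5% of these members, against 63.5% of the regions with H3K27ac. In 3 members the peaks of the 2 stages touched without sharing a base.

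The strongest member by its weaker stage lay on chromosome 15 (98778204 to 98778774, 571 bp wide). It had a signal height of 0.396 at E15.5 and of 0.514 at E13.5, with the highest possible score of 1000 at both stages. It lay 3626 bp from the nearest domain. Next came a region on chromosome 17 (31633244 to 31633976), with signal heights of 0.478 at E15.5 and 0.450 at E13.5 and a domain 14424 bp away. These were the only members in the top 10% of both lists, against 22 preSertoli-specific regions with H3K27ac. A region on chromosome 11 (74206816 to 74207601) followed, with signal heights of 0.392 at E15.5 and 0.392 at E13.5. It stood at percentile 7.16 of the E15.5 list and 10.2 of the E13.5 list. The region on chromosome 1 (182237742 to 182238608) had 0.327 at E15.5 and 0.421 at E13.5.

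The remaining 6 of the 10 strongest were 2 on chromosome 15 (97348108 to 97348922 and 79138172 to 79138976), 3 on chromosome 5 and 1 on chromosome 7 (51940985 to 51942126). Of those on chromosome 5, the region from 97310113 to 97310679 differed most between stages, with signal heights of 0.309 at E15.5 and 0.653 at E13.5, the highest E13.5 value of any member. The others there ran from 125526566 to 125527526 and from 120657055 to 120658204, and had signal heights of 0.350 and 0.336 at E15.5 against 0.349 and 0.327 at E13.5. The distance of the 10 strongest members to a domain ran from 3626 bp to 46507 bp.

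The distance from members to the nearest domain had a median of 17953 bp (quartiles 6123 and 44759). A domain lay within 10 kb of 2273 members, a share of 35.3% (Wilson interval 34.1 to 36.5), against 32.1% of all 199248 merged regions without H3K27ac. The share of members is thus near the background. Only 251 members (3.90%) had a domain within 1 kb, against 4.39% of all regions without H3K27ac. Another 1108 (17.2%) lay at 1 to 5 kb, 914 (14.2%) at 5 to 10 kb and 2724 (42.3%) at 10 to 50 kb. Beyond 100 kb lay 587 members (9.12%), against 12.1% of all regions without H3K27ac.

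The stages differed more from each other in this distance than the members did from the background. Of regions with a peak in the E15.5 list alone and no H3K27ac, 42.4% had an E13.5 domain within 10 kb (Wilson interval 41.5 to 43.4). Of those in the E13.5 list alone it was 27.7% (27.0 to 28.4), and the members, found in both, stood between at 35.3%. Regions with a peak in all 8 lists stood at 33.3%, and among regions of a single other list the share ran from 23.8% in adult brain to 34.7% in adult kidney. With 1 library per stage, stage and library cannot be told apart.

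**Figure D2:**
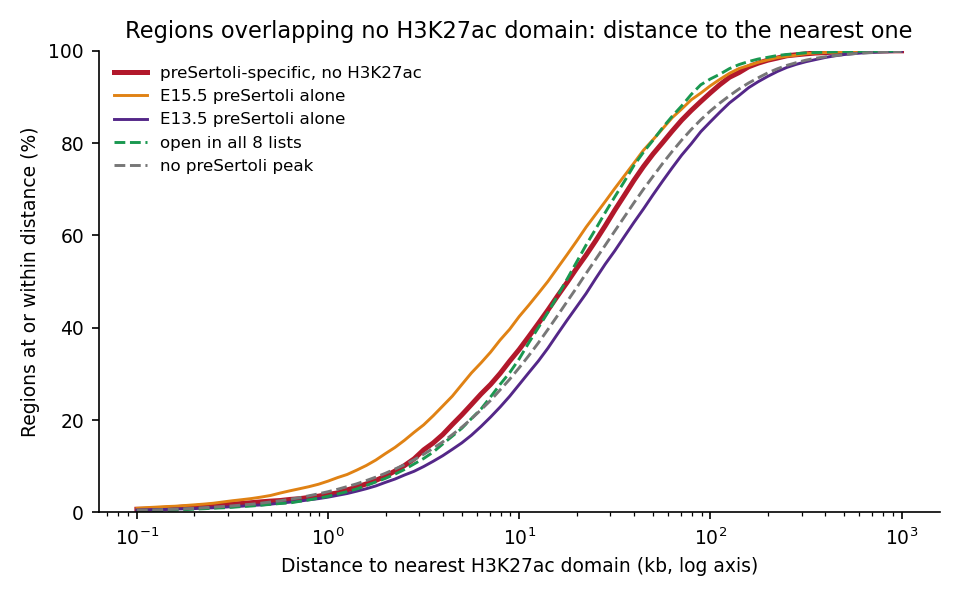
Share of regions (vertical axis, %) whose nearest H3K27ac domain lies at or within a distance (horizontal axis, kb on a log scale), among regions that overlap no domain. At 10 kb the members (red) reach 35.3%, E15.5-only regions 42.4% and E13.5-only regions 27.7%, while the dashed lines stand at 33.3% for regions open in all 8 lists and 31.3% for regions without a preSertoli peak.

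At the edge of the rule, 81 members lay within 200 bp of a domain, the grid on which domain boundaries were drawn, and none touched one. The closest was 1 bp away on chromosome 15 (83529377 to 83529999), and the next was 3 bp away on chromosome 9 (65537244 to 65537997). Regions 9 bp away lay on chromosome 5 (72657810 to 72658020) and chromosome 15 (85553610 to 85554023), and the fifth, 11 bp away, on chromosome 4 (153530812 to 153531168). Their signal heights ran from 0.071 to 0.138 at E15.5 and from 0.0847 to 0.128 at E13.5. Just outside the rule, the 5 smallest overlaps with a domain were 2, 4, 6, 8 and 9 bp. These regions had signal heights of 0.0759 to 0.199 at E15.5 and of 0.0905 to 0.159 at E13.5, so the values on either side of the edge overlapped. Such edge cases were few, since 91.0% of the preSertoli-specific regions with H3K27ac lay wholly inside a domain.

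The most remote member lay 1462192 bp from any domain, on chromosome 2 (87233793 to 87234063), with signal heights of 0.131 at E15.5 and 0.0819 at E13.5. The next were on chromosome 14 (36862212 to 36862595) at 816005 bp and on chromosome 8 (76791107 to 76791703) at 725297 bp. Both stood in the upper 50% of both lists, with signal heights of 0.220 and 0.211 at E15.5 against 0.174 and 0.157 at E13.5. The remaining remote members, on chromosome 1 (160482225 to 160482389) and chromosome 2 (107806190 to 107806384), were weak, with 0.064 and 0.0769 at E15.5 against 0.0737 and 0.0741 at E13.5.

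Seen from the domains, the 2273 members within 10 kb had 2068 different domains as their nearest, which is 7.23% of all domains. Of these domains, 179 were the nearest of 2 or more members, and at most 5 members shared a domain. The nearest domain of a member within 10 kb held an E13.5 preSertoli peak of its own in 79.0% of cases against 77.9% for all merged regions without H3K27ac within 10 kb. It held a preSertoli-specific region in 17.7% of cases, against 13.04% for those regions.

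The balance between stages changed with distance to a domain. Over all members the peak was better placed in the E15.5 list than in the E13.5 list in 54.5% of cases (3507 members against 2932), and the median ratio of signal heights, E15.5 over E13.5, was 1.02 (quartiles 0.786 and 1.32). Within 5 kb of a domain, 61.4% of 1359 members were better placed at E15.5 (Wilson interval 58.8 to 63.9). Beyond 50 kb it was 48.7% of 1442 members (46.1 to 51.3), and beyond 100 kb 44.8% of 587 (40.8 to 48.8). On 17 of the 20 chromosomes with members the share within 5 kb was higher than that beyond 50 kb, the exceptions being chromosomes 12, 13 and 17. The bounds of 5 and 50 kb were set after the values were seen.

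Both stages shifted with distance, E13.5 more than E15.5. In the E15.5 list, the median percentile was 56.4 in members up to 1 kb from a domain and 59.7 in those over 100 kb away. In the E13.5 list it was 67.0 and 55.3. The median signal height at E15.5 was 0.0963 in members up to 1 kb from a domain and 0.0916 in those over 100 kb away, while at E13.5 it was 0.0847 and 0.0994. The same trend was present in regions that were not preSertoli-specific. Among regions without H3K27ac open at both stages and in 1 to 5 other lists, 61.8% were better placed at E15.5 within 1 kb of a domain and 33.3% beyond 100 kb, and among those open in all 8 lists 66.0% and 39.6%. The trend was therefore not found in the members alone, and stage and library cannot be told apart in it.

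**Figure D3:**
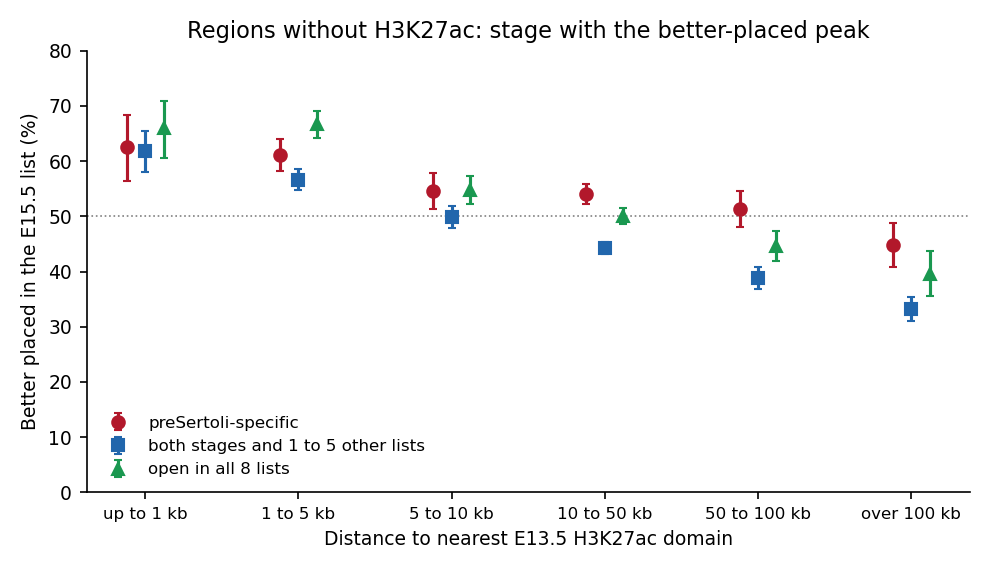
Share of regions without H3K27ac whose peak is better placed in the E15.5 list than in the E13.5 list (vertical axis, %), by distance to the nearest E13.5 H3K27ac domain, with Wilson 95% intervals as bars. PreSertoli-specific regions (red circles) stand at 62.5% up to 1 kb and at 44.8% over 100 kb, and the shared classes (blue squares, green triangles) slope the same way.

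Large gaps between stages were found in both directions. In 899 members the E15.5 peak stood 30 or more percentiles above the E13.5 peak, and in 746 the reverse was true. Together these were 25.5% of the members, against 22.6% of the regions with H3K27ac.

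Most members stood alone. With gaps of up to 10 kb joined into runs, 5180 of the 6439 members (80.4%) had no other member in their run, 946 were in runs of 2, and 313 (4.86%) were in 90 runs of 3 or more. The nearest other member lay a median of 46875 bp away. Another member lay within 10 kb of 19.6% of the members, while 24.2% of the preSertoli-specific regions with H3K27ac, a smaller set, had another of their kind within 10 kb. The rule ties the regions with H3K27ac to 28586 domains that cover 71.1 Mb, and the shares are not adjusted for this. The members' share depended on the peak threshold: it was 10.0% with the higher-scoring 50% of each list and 9.75% with a −log10 p of 2 or more, and the regions with H3K27ac were not recomputed under these settings. Regions of a single other list without H3K27ac had another of their kind within 10 kb in 26.1% of cases in skin fibroblasts to 49.1% in ES cells, but these sets held 10550 to 33872 regions, and the shares are not adjusted for that.

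Members tended to lie beside other members, and regions with H3K27ac beside others with it. Where another preSertoli-specific region lay within 10 kb of a member, the nearest was itself a member in 77.3% of 1588 cases (Wilson interval 75.1 to 79.3). For a preSertoli-specific region with H3K27ac the nearest was a member in 27.9% of 1219 cases (25.4 to 30.5). The gap narrowed with distance: with the neighbour beyond 50 kb the shares were 68.3% for members and 58.1% for regions with H3K27ac, against 63.3% of all preSertoli-specific regions. Several regions can share a domain, and the part of this in the likeness of neighbours was not tested.

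The longest run held 9 members on chromosome 15 (83498047 to 83529999), over 31953 bp. It filled the space between 2 domains that lay 32000 bp apart: its first member began 46 bp after a domain of 2200 bp, and its last ended 1 bp before a domain of 1400 bp. In order along the chromosome, the signal heights of the 9 at E15.5 were 0.0747, 0.141, 0.0982, 0.126, 0.172, 0.186, 0.135, 0.146 and 0.0768. At E13.5 they were 0.0651, 0.0883, 0.128, 0.140, 0.171, 0.173, 0.173, 0.0833 and 0.128. The fifth and the sixth member had the highest signal at E15.5, the sixth and the seventh at E13.5, and the first had the lowest at both stages. Only 3 other open regions lay in the space, each with a peak in 1 other list.

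**Figure D4:**
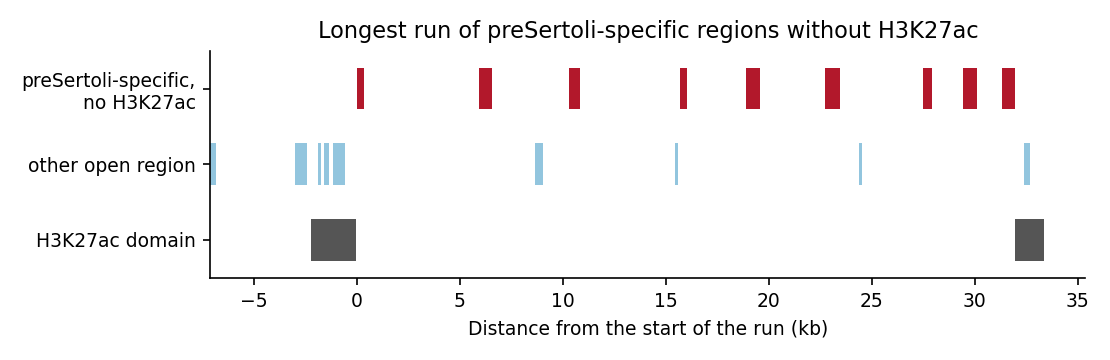
Map of the longest run of members, drawn to scale as distance from its start (kb). The 9 members (red, top) lie between 2 H3K27ac domains (grey, bottom), and 3 other open regions (light blue, middle) lie in the space between the domains.

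The second run, also on chromosome 15 (82763375 to 82793299), held 7 members, 31574 to 61135 bp from a domain. Its strongest member at E15.5 had signal heights of 0.256 at E15.5 and 0.107 at E13.5. A run of 6 on chromosome 2 (31207527 to 31227212) lay 62988 to 82070 bp from a domain, inside a stretch of 175000 bp without any, and no other open region of the 8 lists lay within it. Its strongest member stood at 0.307 at E15.5 and 0.242 at E13.5. Another run of 6, on chromosome 5 (125305687 to 125330319), was led by members with 0.263 and 0.182 at E15.5 against 0.170 and 0.322 at E13.5. The fifth run held 5 members within 9521 bp on chromosome 8 (123690991 to 123700511), 58190 bp or more from a domain, with median signal heights of 0.0814 at E15.5 and 0.108 at E13.5.

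None of these 5 runs had a domain inside its span. Over all runs, 32 of the 563 with 2 or more members (5.68%) and 13 of the 90 with 3 or more (14.4%) did. Members in runs of 3 or more lay about as far from a domain as single ones, with medians of 17118 and 18030 bp, and had median signal heights of 0.101 against 0.0937 at E15.5 and of 0.0948 against 0.0929 at E13.5. In fixed windows of 100 kb, 50 windows held 5 or more members and together 4.43% of them. The densest windows had 8 members each. On chromosome 5 (125300001 to 125400000) and on chromosome 8 (123600001 to 123700000) such a window held no preSertoli-specific region with H3K27ac. On chromosome 1 (94900001 to 95000000) and on chromosome 15 (83500001 to 83600000) it held 1. A further 6 windows held 7 members, among them chromosome 2 (31200001 to 31300000), named first of the tie.

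The widest members were not the strongest. The widest, 1975 bp, lay on chromosome 13 (55948812 to 55950786), 119411 bp from a domain, with signal heights of 0.107 at E15.5 and 0.298 at E13.5. The next was 1855 bp wide and lay on chromosome 17 (27471641 to 27473495). Then came a region of 1716 bp on chromosome 6 (84519556 to 84521271), one of 1404 bp on chromosome 9 (107271698 to 107273101) and one of 1396 bp on chromosome 7 (52944405 to 52945800). Of these, the one on chromosome 7 had the highest signal at E15.5, 0.231 against 0.118 at E13.5.

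Like most regions, members were seldom far from other open chromatin. A median of 21 other merged regions lay within 50 kb of a member, against 18 around all merged regions without H3K27ac, and 30 members (0.466%) had none, against 1.28% of all merged regions without H3K27ac. Although the rule bars a peak of the 6 other lists inside the region, such a peak lay within 1 kb of 1931 members (30.0%), against 35.3% of the preSertoli-specific regions with H3K27ac. By single list, 13.2% of members had an ES cell peak within 1 kb, 9.89% an adult heart peak and 8.42% an adult liver peak, and the ES cell list was also the longest. The nearest region open in all 8 lists lay a median of 23018 bp from a member and 16843 bp from a preSertoli-specific region with H3K27ac.

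Members lay on all 19 autosomes and the X chromosome, and none on the Y. As a share of the regions open at both preSertoli stages they ran from 10.3% on chromosome 19 to 13.4% on chromosome 5 among autosomes, and stood at 6.94% on the X, with 49 members. The X held 0.761% of the members (Wilson interval 0.576 to 1.00), against 0.617% of the preSertoli-specific regions with H3K27ac (0.412 to 0.925) and 1.34% of all merged regions (1.29 to 1.38). The share of preSertoli-specific regions that lacked H3K27ac was 68.1% on the X, within the autosomal range of 57.7% on chromosome 10 to 68.3% on chromosome 11. Low shares on the X were not found in preSertoli-specific regions alone: regions of a single other list had 0.828% on the X in adult brain (0.675 to 1.02), 0.938% in adult heart and 0.989% in adult kidney, and up to 1.81% in adult liver. The embryos were male, and the labels give no sex for the animals and cells of the 6 other lists.

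**Figure D5:**
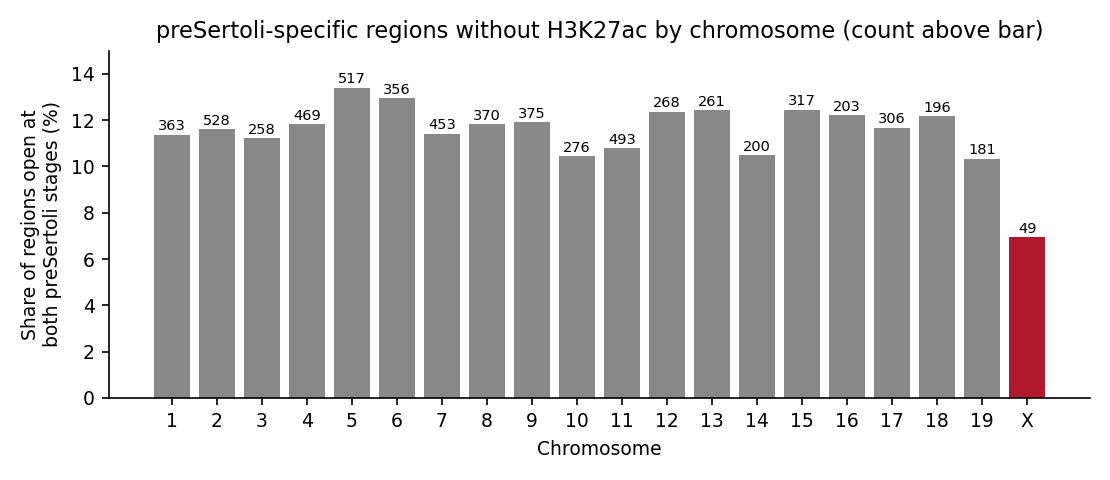
Members as a share of the regions open at both preSertoli stages (vertical axis, %) on each chromosome, with the number of members above each bar. The autosomes stand between 10.3% and 13.4%, and the X (red) at 6.94% with 49 members.

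The 63.3% without H3K27ac among preSertoli-specific regions stood against 83.9% of all merged regions and 59.8% of the 55192 regions open at both preSertoli stages, which include the preSertoli-specific ones. Of the others open at both stages, those with a peak in 1 to 5 other lists lacked the mark in 71.3% of cases (Wilson interval 70.8 to 71.9) and those open in all 8 lists in 44.8% (44.1 to 45.5), so the preSertoli-specific share lay between them. Regions without any preSertoli peak lacked the mark in 93.6% of cases, as measured in preSertoli cells. H3K27ac was mapped at E13.5, so members that gained the mark by E15.5 could not be seen.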

How the data were processed

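The 15 samples comprise 8 DNase-seq libraries, 2 H3K27ac ChIP-seq libraries with 2 inputs, and 3 RNA-seq libraries. The build was mm9, and the submitters' processing notes name BWA 0.6.1-r104 with SAMtools and bedtools for DNase-seq. For ChIP-seq they name SICER, Bowtie and CASAVA 1.8.2, and for RNA-seq RSEM 1.2.0 besides Bowtie 0.12.7 and CASAVA 1.8.2. The sources used here do not say which DNase peak caller and threshold were used, or whether ChIP libraries were pooled. Each DNase list deposited by the authors was called on 1 library and gives per peak a score (highest 1000), a signal height and a −log10 p (1.3 to 16), recognised from the values since there is no header. Signal heights were compared within a list or as a ratio between the preSertoli lists, and for named regions those of both stages are given side by side. The 2 lists may differ in scale, so the better-placed stage was taken from percentiles. The H3K27ac list deposited by the authors gives domain boundaries alone. The RNA-seq signal values deposited by the authors are square-root transformed, per the file headers, with the unit before that step not stated, and served only to check the cell type; CPM values had been planned for. Repeated symbols were reduced to the row of highest mean.

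Peaks were merged, and overlaps of at least 1 bp and distances (bases between region and domain) were computed in Python 3.11.15 with numpy 2.4.6 and pandas 2.3.3; the interval steps were tested on simulated data against bedtools 2.31.1. A region's value at a stage is that of its best-ranked peak there. Ranks follow the score, with ties ordered by signal height. Each DNase group has a single library, so differences have no check by replicates and carry no p-value, and Wilson intervals (scipy 1.17.1) cover counting error only. Named regions were the 10 strongest by their weaker stage, and 5 each of the nearest, just outside, farthest, widest, longest runs and densest windows. Members, lists and rules were chosen with earlier results of these data known. Planned steps on gene context, nearest-gene expression and sequence motifs needed an mm9 genome or annotation and were not analysed here. The alternatives tried were other ways of joining peaks, stricter peak thresholds, other definitions of H3K27ac overlap and of absence elsewhere, and leaving out each other list.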

Additional observations from a re-analysis of the deposited data

How the results depend on the processing

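In all, 9 properties of the members were recomputed under 14 alternatives each. With the higher-scoring 50% of each list, the rule gave 2578 members (50.2% of the preSertoli-specific regions found in this way). Their median distance to a domain was 16709 bp, 10.0% had another member within 10 kb, median signal heights were 0.156 at E15.5 and 0.154 at E13.5, median width was 505 bp, and 100% stood in the upper 50% of the E13.5 list by construction. With a −log10 p of 2 or more, the values were 2420 members (50.4%), 17085 bp, 9.75%, 0.151 at E15.5, 0.149 at E13.5, 500.0 bp and 95.1%. With equal numbers of peaks (62218 per list), they were 4041 members (57.7%), 13.3% with another member within 10 kb, 0.116 at E15.5, 0.117 at E13.5, 423 bp and 58.3%. The upper 50% was that of the uncut E13.5 list, so the 95.1% and the 58.3% were also raised in part by construction. The cuts on score, on −log10 p and to equal numbers were made in every list. A region with a weaker peak in another list could thus become a member. In the main setting, only 1272 members stood in the upper 50% of both preSertoli lists, and 1408 had a −log10 p of 2 or more at both stages. The 2578 and the 2420 are therefore not subsets of the 6439 members. Where a domain within 1 kb counted as overlapping, 60.9% of preSertoli-specific regions lacked H3K27ac, the median distance was 19187 bp and 32.7% had a domain within 10 kb, since the nearest members drop out. Where a domain had to cover 50% of the region, 64.5% lacked it. With no peak of the other lists within 1 kb, 65.1% lacked it, the distance was 20218 bp, and 32.8% had a domain and 14.4% another member within 10 kb.

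Leaving out 1 of the 6 other lists gave 6723 to 9051 members and 63.0% to 66.2% without H3K27ac, median distances of 17728 to 18715 bp, 34.0% to 35.5% with a domain and 20.3% to 24.0% with another member within 10 kb. Median signal heights were 0.0938 to 0.095 at E15.5 and 0.0929 to 0.0959 at E13.5, 35.5% to 38.8% stood in the upper 50% of the E13.5 list, and widths were 357 to 363 bp. Leaving out the ES cell list gave the highest count and the highest share without H3K27ac. Apart from effects of construction, the cause of these shifts was not tested. In alternatives added after the data were seen, the share better placed at E15.5 was higher within 5 kb of a domain than beyond 50 kb in all 14. Its level moved in 2 of them, from 61.4% and 48.7% in the main setting. With equal numbers of peaks it was 57.0% and 43.1%, and without the ES cell list 58.5% and 44.2%. With equal numbers, ranks were still divided by the full list lengths, 81467 at E15.5 and 88107 at E13.5. The cut thus removed a larger part of the E13.5 list, which can lower the share by construction. No paired analysis was possible because the H3K27ac list has no values per ChIP library and no test was made. The number of reads behind each list is unknown, which limits how far a missing peak can be read.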
